A study of Mus musculus with 20 samples.

Results

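The comparison covered the interval from day 1 to day 2 of GATA6 induction in mouse embryonic stem (ES) cells, measured as chromatin accessibility by ATAC-seq, in which a transposase cuts open DNA and the cut fragments are sequenced. Its members were all GATA6 binding regions of the deposited region table, 42403 of 42403, and its samples were the 6 libraries titled day 1 and day 2 out of the 20 of the series, 3 in each group. The cells were KH2 ES cells of C57BL/6 x 129/Sv genotype that carry a doxycycline-inducible *Gata6* cassette, and both groups carried the cassette and received doxycycline, so neither is an uninduced control. The treatment labels give 48 h of doxycycline for the samples titled day 1 and 72 h for those titled day 2, and the groups were named here by their titles. The transgene is a single copy that encodes HA-tagged GATA6, 2 clones were used in the study, and the labels do not say which clone gave which sample. ES cells were grown on mouse embryonic fibroblast feeders, and removal of the feeders before ATAC-seq is not given in the sources used here. The remaining groups of the series are day 0 (before induction), 8 h, 16 h, day 4 and XEN cells, an extra-embryonic endoderm stem cell line, and they are used here only to place the values of day 1 and day 2.

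GATA6 is a zinc-finger transcription factor that drives the primitive endoderm, the early embryonic lineage that lines the blastocyst cavity and gives rise to the yolk sac endoderm, and its forced expression in ES cells is enough to start that programme. GATA factors can bind sites wrapped in nucleosomes, and opening of such sites is often shared with partners such as SOX17, an HMG-box factor of endoderm. OCT4 and SOX2, which with ESRRB are the pluripotency transcription factors (PTFs) profiled in this system, bind side by side on a composite motif, whereas SOX17 is known to pair with OCT4 on a compressed version of it that lacks a base between its SOX and OCT elements.

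Sequences from regions that opened and from regions that closed in this interval are shown first, each with 26 bases on either side of the element. The first, from the example region of *Sox17*, shows the best GATA6 motif of the region in capitals, read by coordinates from mm10. The GATA6 summit of this region lies 40288 bp upstream of the gene's start, and the printed motif lies 871 bases from the summit.
Sox17 region, chr1:4538481-4538545, plus strand: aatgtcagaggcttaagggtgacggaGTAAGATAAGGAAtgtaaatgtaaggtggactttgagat

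The other 4 contrast the spacing of the SOX and OCT elements. The compressed form, TTGTATGC, stands in capitals in the regions near *Ahi1* and *Jam3*, which rose, and the canonical form with 1 base between the elements, TTGTNATGC, in the regions near *Snx11* and *Eomes*, which fell. They were picked by their values, as the 2 largest rises with the compressed word and the 2 largest falls with the canonical word among called regions whose libraries did not overlap. Falls were the rarer call with the canonical word, 6 of 420 tested regions against 35 rises.
Ahi1 region, chr10:20935504-20935563, minus strand: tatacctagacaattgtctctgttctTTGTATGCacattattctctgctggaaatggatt
Jam3 region, chr9:27172380-27172439, minus strand: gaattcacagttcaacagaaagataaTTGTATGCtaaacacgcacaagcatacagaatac
Snx11 region, chr11:96780370-96780430, plus strand: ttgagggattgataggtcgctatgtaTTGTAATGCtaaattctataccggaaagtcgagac
Eomes region, chr9:118406334-118406394, minus strand: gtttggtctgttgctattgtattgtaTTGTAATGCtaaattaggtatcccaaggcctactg

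Values were RPM, that is reads from fragments under 100 bp in each region scaled to the size of the library, not corrected for region width, so that changes and not levels are compared between regions. The deposited columns are the authors' means of each group. Reads of single libraries could be recovered exactly from those means for 24753 regions, 58.4% of all, which lie almost wholly on 11 chromosomes, so tests are given for these and averaged values only for the others. The recovered and the other regions had the same median change (0.38), with 19.6% and 20% of them over 2-fold higher. The 6 libraries held between 181165784 and 261418136 reads by their recovered scaling, of which 864722 to 2048404 fell in the recovered regions, a median of 19 to 38 reads per region. Recovered libraries are numbered within a group from most to fewest reads and are not tied to the replicate numbers of the labels.

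Between day 1 and day 2 most GATA6 regions gained signal, and the gain was uneven. The regions are GATA6 peaks from the time points of induction and XEN cells, so the set was not chosen independently of the induction. In the averaged columns the sum over all 42403 regions was 8959 RPM at day 1 and 14053 RPM at day 2, 1.57 times as much, and the median region changed by 0.38 on the log2(RPM + 0.03) scale used throughout, with quartiles of -0.06 and 0.86. By these averages 8387 regions (19.8%) were over 2-fold higher and 355 (0.837%) over 2-fold lower, changes that ranged from -1.64 to 3.21. These counts rest on averages and carry no test, and in bulk samples a change in the share of cells that are open and a change in each cell cannot be told apart.

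The gain in summed signal could not be told apart from the spread between libraries, with 3 in each group. The summed signal over the recovered regions was 4371, 7123 and 4773.1 RPM in the 3 day 1 libraries and 6847.2, 9757.4 and 8779.4 RPM in the 3 day 2 libraries. The second day 1 library therefore lay above the first day 2 library and the groups overlapped. The difference of the log2 totals was 0.66 (p = 0.2 by a two-sided exact permutation of the 3 and 3 libraries, where 0.1 is the smallest p possible). Results are therefore given both on the RPM scale and relative to all regions of the same library, that is after centring each library on its median. The mean library median rose by 0.44 between the days, so a region without change on the RPM scale lies lower after centring.

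Region by region, 4926 of 24753 regions rose (19.9%) and 166 fell (0.671%) by limma with Benjamini-Hochberg adjustment over all tested regions (adjusted p under 0.05 and a change over 2-fold). After centring, 2085 regions rose (8.42%) and 1548 fell (6.25%), so the share of rises among calls went from 96.7% to 57.4%. All 3 day 2 libraries lay above all 3 day 1 libraries in 35.7% of regions and below them in 6.77%. Limma estimated 1 spread for all regions (SE 0.30), and every region past 2-fold met the adjusted p, so the calls amount to the 2-fold limit on the library means. With each region's own spread in place of the shared one, 0 regions passed (unadjusted p under 0.05: 7350 higher and 844 lower), and 1314 rises and 658 falls passed once the libraries were also centred. The count of falls depended on single day 1 libraries: it was 304 without day 1 library 1, 40 without day 1 library 2 and 443 without day 1 library 3.

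Regions that rose had been near the level of all tested regions until day 1. In the averaged columns their median started from 0.0703 RPM before induction, was 0.0738 and 0.0862 RPM after 8 h and 16 h, reached 0.122 RPM on day 1 and 0.412 RPM on day 2, and was 0.354 RPM on day 4, with 0.183 RPM for XEN cells. All tested regions had medians of 0.0814, 0.0847, 0.0937, 0.116, 0.167, 0.132 and 0.121 RPM in this order. Regions that fell started higher, with medians of 0.263, 0.239, 0.212, 0.249, 0.0933, 0.0621 and 0.0944 RPM in the same order. Day 1 and day 2 set these calls, so that only the other columns are independent of them. Of the regions that rose, 82.2% had been assigned to the closed class in ES cells before induction (60.3% of tested regions), and 51.2% of those that fell carried active enhancer marks in ES cells (11.5% of tested regions).

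The 10 largest rises among recovered regions whose libraries did not overlap lay near *Scoc*, *Aqp1*, *Acaca*, *Atoh1*, *Myo7a*, *Eps8*, *Xkr9*, *Rab11a*, *Slc9a3* and *Rflna*, with log2 changes from 3.05 down to 2.86. All 10 belonged to the Late GATA6 cluster (33% of tested regions), all 10 were bound by SOX17 (44.9%) and all 10 were closed before induction (60.3%). Among recovered regions, the one with the largest rise (chr8:83458394-83458816) covers the promoter of *Scoc*, which encodes a short coiled-coil protein. Its GATA6 summit lies 203 bp upstream of the start site. The largest change over all regions was 3.21 in the averaged columns, where the *Scoc* region changed by 2.99. It measured 0.0689, 0.0533 and 0.16 RPM on day 1 and 0.664, 1.16 and 1.04 RPM on day 2. The day 2 libraries of this region lay above its day 1 libraries, as the selection required. The change of 3.05 had an adjusted p of 8.4e-20 on the RPM scale and 9.9e-06 after centring (limma). On the RPM scale its SE of 0.30 is the spread shared by all regions and not that of this region alone.

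A region 12273 bp upstream of *Aqp1*, the water channel aquaporin 1, rose from 0.0689, 0.0977 and 0.0662 RPM to 0.564, 1.06 and 0.978 RPM. An intronic region 4646 bp downstream of the start of *Myo7a*, an unconventional myosin, rose from 0.0956, 0.178 and 0.0828 RPM to 0.756, 1.43 and 1.17 RPM. An intronic region 3902 bp downstream of the start of *Eps8*, an actin regulator that is a substrate of the EGF receptor, rose from 0.111, 0.227 and 0.171 RPM to 0.896, 2.03 and 1.67 RPM. In each of these the day 2 libraries stood apart from the day 1 libraries, as the selection required, and library 1 was the lowest of day 2. The averaged columns show how late the gain came: the *Eps8* region had 0.0786 RPM before induction and 0.1 RPM after 16 h, then 0.17, 1.53 and 1.27 RPM on days 1, 2 and 4, with 0.106 RPM for XEN cells. The *Rflna* region had 0.0405, 0.0323, 0.053, 0.611, 0.714 and 0.322 RPM in the same columns, so XEN cells were near the day 0 level in the first and above it in the second.

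The 6 largest falls lay near *Magi1*, *Sgsm1*, *Ocm*, *Tspan13*, *Ncoa1* and *Orc5*, with changes from -1.60 to -1.41. All 6 were Transient regions without SOX17, and 5 of 6 were bound by PTFs before induction. Of all tested regions 39.4% were Transient, 55.1% lacked SOX17 and 20.9% were bound by PTFs before induction. The intronic *Magi1* region (chr6:93873213-93873881), 39882 bp downstream of the start of this membrane-associated scaffold gene, measured 0.302, 0.555 and 0.309 RPM on day 1 and 0.101, 0.157 and 0.0678 RPM on day 2. The *Orc5* region, 22283 bp upstream of an origin recognition complex gene, measured 0.214, 0.244 and 0.204 RPM and then 0.0874, 0.0667 and 0.0436 RPM. Their averaged values before were 0.385 and 0.257 RPM at day 0 and 0.35 and 0.21 RPM at 16 h. No library of one day overlapped the other day in these regions, as the selection required. All 16 largest rises and falls passed the same test after centring, which is not independent of their selection by the same values. The fall near *Magi1* does not stand for all regions of that gene. Of 47 tested regions near it 10 rose and 1 fell, with a median change of 0.2, and after centring 3 rose and 2 fell.

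**Figure D1:**
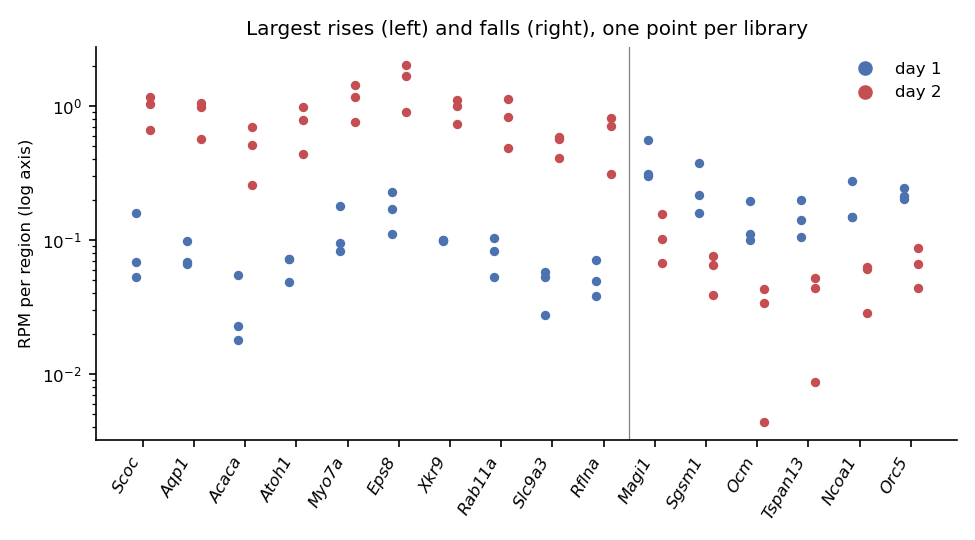
RPM per region on a log axis for the 10 largest rises (left of the grey line) and 6 largest falls (right), with 3 day 1 libraries in blue and 3 day 2 libraries in red. The *Scoc* region goes from 0.0533 to 0.16 RPM at day 1 to 0.664 to 1.16 RPM at day 2, and the *Magi1* region goes from 0.302 to 0.555 RPM to 0.0678 to 0.157 RPM.

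The GATA6 clusters, which the authors built from GATA6 binding over all time points and not from ATAC-seq, differed in this interval. Early&Constant regions (bound fast and kept) had a median change of 0.73 over 11875 regions, Late regions (bound slowly) 0.54 over 14243, and Transient regions (bound fast and lost) -0.06 over 16285. Early&Constant regions had library medians of 0.168, 0.28 and 0.204 RPM on day 1 and 0.336, 0.486 and 0.445 RPM on day 2, with no overlap. Late regions had 0.0497, 0.0577 and 0.0552 RPM and then 0.0787, 0.114 and 0.107 RPM, again with no overlap but close to the pseudocount, which damps their change. Transient regions had 0.122, 0.195 and 0.127 RPM and then 0.127, 0.148 and 0.145 RPM, so that these groups overlapped on the RPM scale. Relative to all regions of the same library, however, the Transient median moved from between 0.22 and 0.39 above to between 0.12 and 0.25 below (values from -0.25 to -0.12).

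By limma, 2304 of 6850 Early&Constant regions rose (33.6%) and 5 fell, 2169 of 8159 Late regions rose (26.6%) and 1 fell, and 453 of 9744 Transient regions rose (4.65%) and 160 fell (1.64%). After centring, 14.9% of Transient regions fell, against 0.73% of Early&Constant and 0.625% of Late regions. The distance between the Early&Constant and Transient medians within a library widened from 0.47 ± 0.10 at day 1 to 1.40 ± 0.16 at day 2 (SD, n = 3), a difference of 0.93 that had an exact permutation p of 0.1, the smallest possible with 3 against 3. For this and 10 further contrasts computed in the same way, 11 in all, the lowest Benjamini-Hochberg adjusted value was 0.11, so that none could pass 0.05 in this design.

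The averaged columns placed the interval differently for each cluster. Early&Constant regions had medians of 0.12 RPM before induction, 0.159 RPM after 16 h, and 0.208, 0.403 and 0.291 RPM on days 1, 2 and 4. Late regions had 0.0396, 0.0418, 0.0511, 0.0962 and 0.124 RPM in these columns and 0.137 RPM in XEN cells, the highest of their series. Transient regions had 0.112, 0.12, 0.143, 0.134 and 0.0825 RPM. In the same order of clusters, the median change from 16 h to day 1 was 0.31, 0.18 and 0.21, and that from day 2 to day 4 was -0.40, 0.21 and -0.50. Those intervals share a group with the one reported here, so the values stand side by side without a test.

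SOX17 binding, taken by the authors from peak calls during differentiation, separated regions that gained from regions that did not. The 18861 regions with SOX17 had a median change of 0.79 and the 23542 without it 0.08. Library medians with SOX17 were 0.126, 0.191 and 0.149 RPM on day 1 and 0.262, 0.395 and 0.358 RPM on day 2, and without SOX17 they were 0.0803, 0.115 and 0.0883 RPM and then 0.0918, 0.105 and 0.107 RPM. The day 2 libraries stood above all day 1 libraries only in the first of these sets. Of tested regions with SOX17, 4141 of 11103 rose (37.3%) and 4 fell, whereas 785 of 13650 without it rose (5.75%) and 162 fell (1.19%). After centring, 17.1% rose and 0.964% fell with SOX17, and the order turned without it, with 190 rises (1.39%) and 1441 falls (10.6%). Within a library, the SOX17 median exceeded the other by 0.50, 0.60 and 0.60 at day 1 and by 1.26, 1.66 and 1.51 at day 2 (exact permutation p = 0.1, n = 3 and 3).

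**Figure D2:**
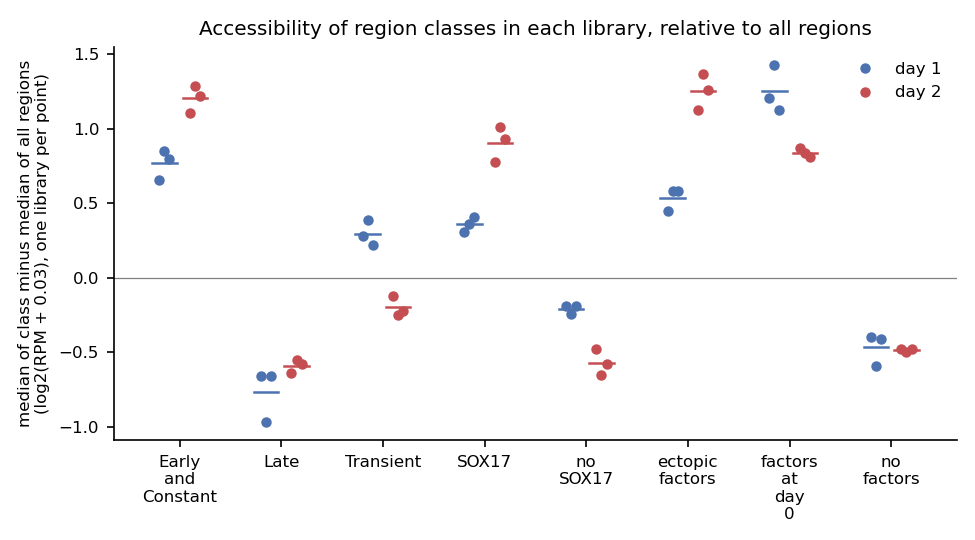
Median of each class of regions minus the median of all recovered regions in the same library, on the log2(RPM + 0.03) scale, one point per library with group means as lines (3 day 1 libraries in blue, 3 day 2 in red). SOX17-bound regions go from between 0.31 and 0.41 to between 0.78 and 1.01, and regions with pluripotency factors at day 0 go from between 1.13 and 1.43 to between 0.81 and 0.87.

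Binding of the pluripotency factors gave the widest range. The 7038 regions with ectopic PTF binding, where the authors called peaks of these factors during induction and not before it, had a median change of 1.01, the 26524 regions without these factors 0.33 and the 8841 regions bound by them at day 0 a median change within 0.01 of 0. Ectopic PTF regions had library medians of 0.142, 0.227 and 0.171 RPM on day 1 and 0.341, 0.514 and 0.46 RPM on day 2, with no overlap. Regions bound at day 0 had 0.26, 0.435 and 0.265 RPM and then 0.28, 0.348 and 0.329 RPM, with overlap. Rises were called in 2099 of 4109 ectopic regions (51.1%) and falls in 0, and 27.1% rose after centring. At day 0 sites 433 of 5166 rose (8.38%) and 127 fell (2.46%), and 18.4% fell after centring. The ectopic median lay 0.76, 0.86 and 0.55 below that of the day 0 sites in the day 1 libraries and 0.26, 0.53 and 0.45 above it in the day 2 libraries (exact permutation p = 0.1), so the order of these classes was opposite on the 2 days in every library.

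The GATA6 cluster, SOX17 and PTF class were then combined into 18 sets. The 1259 Late regions with SOX17 and ectopic PTFs had the highest median change, 1.46, and 539 of 745 tested rose (72.3%), 49.9% also after centring. Their library medians were 0.0956, 0.129 and 0.11 RPM on day 1 and 0.275, 0.472 and 0.407 RPM on day 2. The 3725 Early&Constant regions with both had a median change of 1.17, and 62.5% rose. At the other end, the 3961 Transient regions with PTFs at day 0 and no SOX17 had a median change of -0.46, and 122 of 2294 tested fell (5.32%), 37% after centring. Their library medians were 0.176, 0.289 and 0.16 RPM and then 0.131, 0.138 and 0.136 RPM, so every day 2 library was lower than every day 1 library. In each of the 9 pairs that share cluster and PTF class, the regions with SOX17 had the higher median change, and in each of the 6 pairs of cluster and SOX17 class the order was ectopic PTFs, no PTFs, PTFs at day 0.

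**Figure D3:**
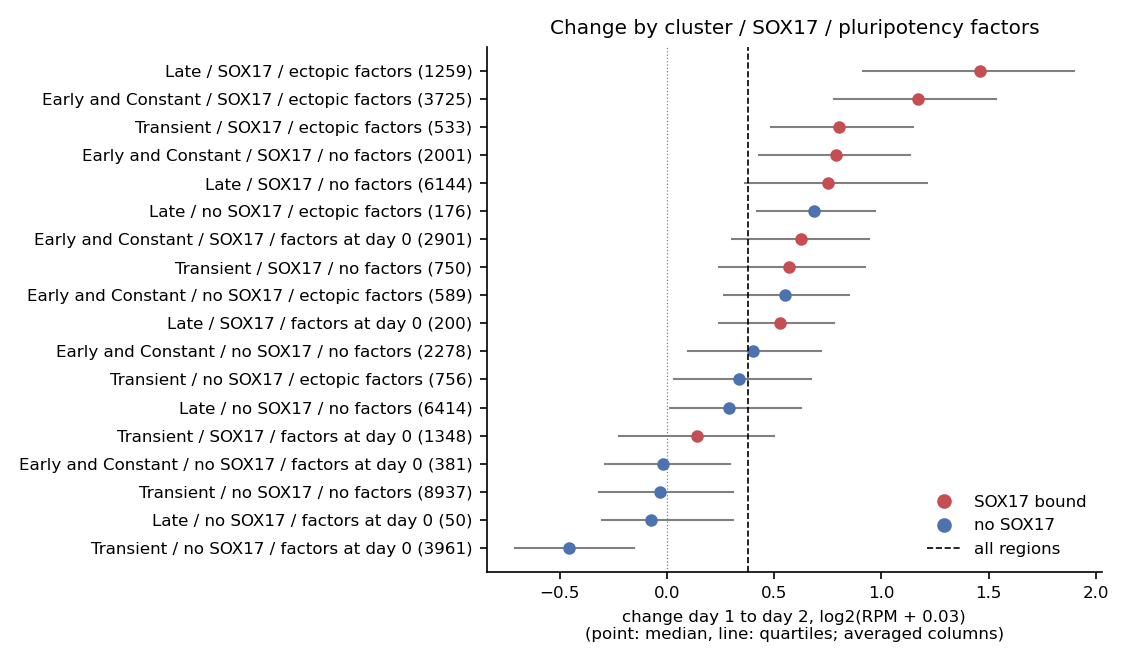
Median change from day 1 to day 2 (point) and quartiles over regions (line), log2(RPM + 0.03) of the averaged columns, for the 18 combinations of GATA6 cluster, SOX17 and pluripotency factor binding, with the number of regions in brackets. The dashed line marks the median of all regions, 0.38; medians run from -0.46 to 1.46.

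The authors' classes from an *Oct4* knockdown during induction were also separated. The 2651 regions with decreased GATA6 binding in the knockdown had a median change of 0.59, the 3636 with increased binding 0.78 and the remaining 36116 regions 0.32. Of tested regions, 454 of 1570 with decreased binding rose (28.9%) and 786 of 2126 with increased binding (37%), against 19.9% of all tested regions. The 153 Late regions among the 2651 with decreased binding had a median change of 1.69. Of these Late regions 87 of 98 tested rose, against 26.6% of all tested Late regions. Their library medians were 0.0574, 0.091 and 0.0773 RPM on day 1 and 0.234, 0.348 and 0.332 RPM on day 2, with no overlap. The 2731 Late regions with increased binding had a median change of 0.75, and 583 of 1610 tested rose. Within a library, the median of regions with increased binding went from -0.46 ± 0.24 relative to unchanged regions at day 1 to 0.12 ± 0.17 at day 2 (SD, n = 3), and that of regions with decreased binding from 0.92 ± 0.11 to 1.24 ± 0.05. Neither pair of groups overlapped (exact permutation p = 0.1 for both).

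Regions were also grouped by their state before induction. Closed regions had a median change of 0.50, moderate ones 0.17 and accessible ones 0.24, and 27.1%, 10.3% and 3.18% of the tested regions rose. Late regions that were accessible before induction had a median change of 0.64 over 538 regions, against -0.22 over the 2033 accessible Transient regions. By histone marks in ES cells, regions of the class the authors call naive had a median change of 0.57 and 31.5% rose, facultative heterochromatin 0.51 and 26.9%, and active enhancers 0.03 and 7%. The 2782 regions within 1000 bp of a protein-coding start site had a median change of 0.54 but rose in 9.56% of tested cases, against 19.9% of all regions. Within a library, the promoter median relative to intergenic regions went from 1.45 ± 0.07 to 1.57 ± 0.08 (SD, n = 3), where the libraries overlapped (exact permutation p = 0.2). On the log2(RPM + 0.03) scale the median change was 0.30 in the narrowest of 4 width groups of equal size (median width 299 bp) and 0.53 in the widest (1016 bp). Averaged medians went from 0.0444 to 0.065 RPM in the narrowest group and from 0.324 to 0.496 RPM in the widest. RPM was not corrected for width, and the narrowest regions lay close to the pseudocount, which damps their change.

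Short words were searched on both strands in the 301 bases centred on each GATA6 summit. The 12 words were chosen with earlier results of these data known, and a match is a string of letters, not a shown binding site. The GATA word AGATAA stood in 58.1% of all windows and did not separate the regions, with a median change of 0.39 with it and 0.37 without it. The widest separations came from the SOX, OCT and ESRRB words.

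**Figure D4:**
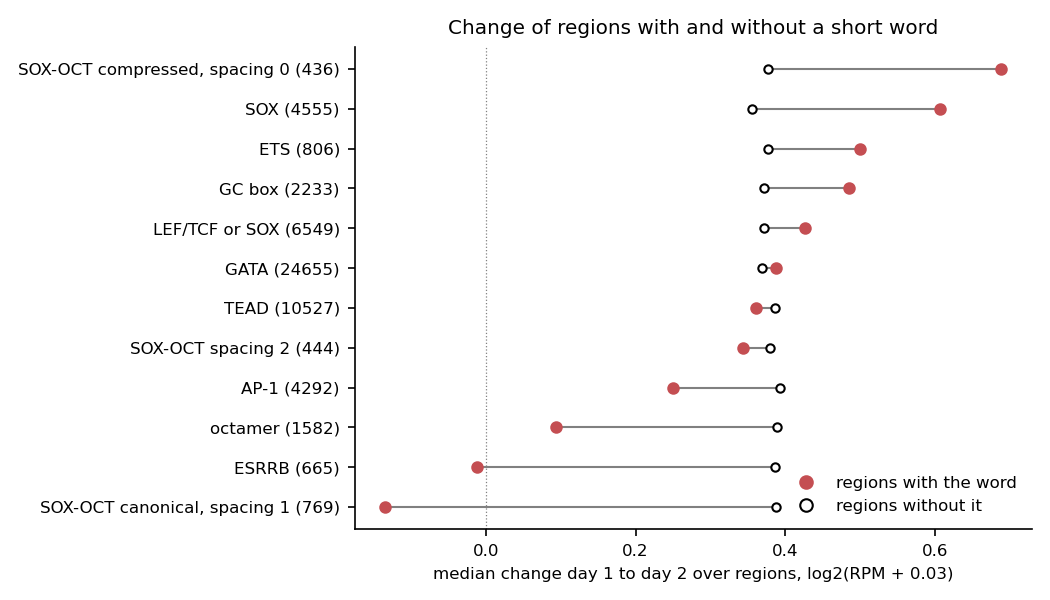
Median change from day 1 to day 2 over regions with each of 12 short words within 150 bases of the GATA6 summit (red) and over regions without it (open), log2(RPM + 0.03) of the averaged columns, with the number of regions that hold the word in brackets. The compressed SOX-OCT word stands at 0.69 and the canonical SOX-OCT word at -0.13.

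Spacing separated the composite SOX-OCT words. Regions with the canonical word TTGTNATGC (769 windows, 1.81% of all) had a median change of -0.13, and regions with the compressed word TTGTATGC (436 windows, 1.03%) a median change of 0.69. A spacing of 2 bases (TTGTNNATGC, 444 windows) gave 0.34, near all regions, and only 5 windows held both the canonical and the compressed word. Regions with the compressed word had library medians of 0.0995, 0.138 and 0.105 RPM and then 0.179, 0.257 and 0.218 RPM, with no overlap, and 86 of 253 tested rose (34%) and 2 fell, or 14.6% and 4.74% after centring. Regions with the canonical word had 0.142, 0.231 and 0.135 RPM and then 0.14, 0.152 and 0.145 RPM, and 35 of 420 tested rose (8.33%) and 6 fell (1.43%), or 3.1% and 20% after centring. Within a library, the compressed median was lower than the canonical one by 0.41, 0.64 and 0.29 at day 1 and higher by 0.30, 0.65 and 0.50 at day 2 (exact permutation p = 0.1).

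These words follow the PTF classes in part. The canonical word stood in 5.64% of regions bound by PTFs at day 0 and 0.867% of ectopic regions, and the compressed word in 1.2% and 2.5%. Inside the day 0 class, the median change was -0.30 with the canonical word and 0.46 with the compressed word, and inside regions without SOX17 it was -0.30 and 0.09. Regions lacking the compressed word had -0.01 and 0.08 in these 2 classes. The compressed word gave 1.11 in ectopic regions (1.01 lacking it) and 0.36 in regions without PTFs (0.33 lacking it). The canonical word gave 0.65 and 0.05 there (1.01 and 0.33 lacking it). In Late regions the canonical word gave 0.58 and the compressed word 0.73, against 0.54 lacking either word.

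Among the other words, CCATTGT, a SOX site, stood in 10.7% of windows with a median change of 0.61. The octamer ATGCAAAT stood in 3.73% with 0.09, and TCAAGGTCA, a site of ESRRB, in 1.57% with a median change of -0.01. TGAGTCA, the AP-1 site, stood in 10.1% of windows with a median change of 0.25. Medians between 0.36 and 0.50 were found for the remaining words. These were the GC box GGGCGGG in 5.27% of windows, the ETS word CCGGAAG in 1.9%, and the TEAD word GGAATG in 24.8%. The word AACAAAG, read by LEF, TCF and SOX factors, stood in 15.4%. The octamer overlaps the composite words in their OCT element, and 56 windows held both the octamer and the canonical word.

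Regions were then read by their nearest gene, over 9 lists of genes of this lineage change and 4 lists of markers of other cell types. Nearest gene is a matter of position and does not show that the region acts on the gene. Of the 81 regions nearest to 5 primitive endoderm factors, 38 were over 2-fold higher and 0 lower in the averaged columns (19.8% and 0.837% of all regions), with a median change of 0.77. The 12 of them with recovered libraries all lay near *Sox17*, and 7 of the 12 rose (58.3%, against 19.9% of all tested regions) and 0 fell. After centring 3 of the 12 rose (25%, against 8.42%) and 0 fell. The *Sox17* region with the highest mean of both days (chr1:4536608-4538990) rose from 0.543, 0.875 and 0.762 RPM to 2.62, 4.34 and 3.02 RPM (log2 change 2.14, SE 0.30, adjusted p = 9.5e-11, limma).

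The other factors of this list have averaged values only. The *Gata6* region with the highest mean of both days, 539 bp downstream of the start site, went from an averaged 1.46 RPM to 3.42 RPM, where reads from the coding sequence of the transgene and of the endogenous gene cannot be told apart. The *Gata4* example averaged 0.964 and 2.54 RPM. The *Foxa2* promoter region, 85 bp from the start site of this endoderm forkhead factor, averaged 0.786 and 2 RPM, and 14 of 31 *Foxa2* regions were over 2-fold higher. The *Sox7* example averaged 0.647 and 1.52 RPM. *Hnf4a* is the nearest gene of no region.

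Endocytosis genes of the visceral endoderm had a higher median change than these factors. The genes *Dab2*, *Lrp2*, *Cubn* and *Amn* encode an adaptor and receptors that take up maternal protein. Of 44 regions near them, 23 were over 2-fold higher and 1 lower in the averaged columns (19.8% and 0.837% of all regions). Their median change was 1.03, and only the *Amn* region had recovered libraries. That region rose from 0.845, 1.51 and 1.19 RPM to 1.74, 3.03 and 2.65 RPM (log2 change 1.05, adjusted p = 0.0025), and it did not pass after centring. The *Dab2* promoter region averaged 0.65 and 1.93 RPM on the 2 days, and 7 of 8 *Cubn* regions were over 2-fold higher.

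Basement membrane genes, which encode the matrix that primitive endoderm lays down, had a median change of 0.66 over 96 regions, with 21 over 2-fold higher and 0 lower, a share close to that of all regions. Of 68 tested, 16 rose (23.5%, near the 19.9% of all tested regions) and 0 fell. After centring 6 rose (8.82%, near the 8.42% of all tested regions) and 0 fell (6.25% of all tested regions). The 16 rises included 4 of 7 regions of *Col4a1* and 4 of 12 of *Col4a2*, neighbouring collagen IV genes. The *Col4a2* example rose from 0.956, 2.09 and 1.35 RPM to 3.35, 5.65 and 4.35 RPM (log2 change 1.62, adjusted p = 1.2e-06), and the *Col4a1* example from 0.524, 0.693 and 0.464 RPM to 1.38, 2.34 and 1.67 RPM. The days did not overlap in either. For the laminin genes, 2 of 25 *Lamc1* regions and 0 of 5 *Lamb1* regions rose, with median changes of 0.42 and 0.92, and all 3 day 2 libraries lay above day 1 in 7 and 4 of them. The 18 *Lama1* regions, with averaged values only, had a median change of 0.67, and 4 were over 2-fold higher.

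Receptor kinase and FGF genes split by gene. Of 59 tested regions 11 rose (18.6%, near the 19.9% of all tested regions) and 1 fell, and after centring 4 rose and 4 fell. The rises were 7 of 19 regions near *Fgfr2* and 4 of 17 near *Pdgfra*, the receptor that marks primitive endoderm, while 0 of 14 rose near *Dusp6*, a phosphatase induced by FGF signalling, and the fall was 1 of 2 regions near *Etv4*, an ETS factor induced by the same pathway. The *Pdgfra* example (chr5:75142815-75145699), 8489 bp upstream, rose from 1.01, 1.75 and 1.23 RPM to 2.17, 3.55 and 3.18 RPM (log2 change 1.15, adjusted p = 0.00089), which was under 2-fold after centring (0.70). The *Fgfr2* example rose from 0.884, 1.7 and 0.983 RPM to 2.22, 2.92 and 2.36 RPM. The 14 *Dusp6* regions had library medians of 0.149, 0.191 and 0.135 RPM and then 0.135, 0.145 and 0.133 RPM, with a median change of -0.38.

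Nodal and BMP genes also differed among themselves. Of 69 regions, 23 were over 2-fold higher (33.3%, against 19.8% of all regions) and 0 lower. Of 27 tested 6 rose (22.2%, near the 19.9% of all tested regions) and 0 fell, and after centring 3 rose and 3 fell. Of the 6 rises, 5 were among 16 regions near *Id2*, an inhibitor of HLH factors downstream of BMP, where 2 rose and 2 fell after centring. The *Bmp2* example, near a BMP ligand, averaged 0.333 and 1.23 RPM on the 2 days. The *Tdgf1* example, upstream of the gene of the Nodal co-receptor, measured 1.23, 2.15 and 1.07 RPM and then 0.717, 0.729 and 0.804 RPM, all 3 day 2 libraries below day 1. Its change of -0.89 (adjusted p = 0.012) did not reach 2-fold on the RPM scale and did after centring (-1.34). The single *Nodal* region measured 0.853, 1.48 and 0.811 RPM and then 0.568, 0.767 and 0.741 RPM, a change of -0.54 that did not pass (adjusted p = 0.15) although the days did not overlap. Among secreted proteins of visceral endoderm 9 of 33 regions were over 2-fold higher (27.3%, against 19.8% of all regions), with a median change of 0.41, near the 0.38 of all regions. Of 14 tested 3 rose (21.4%, near the 19.9% of all tested regions) and 0 fell, and after centring 0 rose and 1 fell. Both *Cer1* regions, near a Nodal and BMP antagonist, rose, and neither passed after centring.

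Core pluripotency genes had a median change of 0.14 over 49 regions, under the 0.38 of all regions, with 6 over 2-fold higher and 1 lower, and of 18 tested 2 rose (11.1%, against 19.9% of all tested regions), both near *Esrrb*, and 0 fell, while 5 fell after centring. The *Nanog* example measured 1.37, 2.35 and 1.25 RPM and then 1.64, 1.93 and 1.69 RPM, with overlap. The *Sox2* example, 110895 bp downstream of the start site, averaged 1.28, 0.665 and 0.207 RPM on days 1, 2 and 4, and the *Pou5f1* example averaged 1.04, 1.3 and 0.45 RPM.

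Naive pluripotency genes had a median change of 0.29 over 138 regions, which turns to -0.14 after centring and -0.15 after quantile normalisation. Of 95 tested, 16 rose (16.8%, near the 19.9% of all tested regions) and 1 fell, with 7 and 6 after centring, and 8 of the 16 rises were among 24 regions near *Klf4*. The *Klf4* regions had library medians of 0.0765, 0.14 and 0.108 RPM and then 0.125, 0.262 and 0.196 RPM, so the days overlapped. Of 5 *Klf2* regions 0 rose, and 2 fell after centring. The adhesion genes *Cdh1*, *Cdh2* and *Epcam* had a median change of -0.03 over 28 regions, with 1 over 2-fold higher and 0 of 9 tested called.

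Regions near marker genes of other cell types were few, since the table holds only GATA6-bound regions. In the averaged columns 54.5% of 11 mesoderm regions and 50% of 6 neural ectoderm regions were over 2-fold higher, against 19.8% of all regions. Trophoblast genes had 17.1% of 35 regions and feeder fibroblast genes 7.14% of 14. Of 12 tested regions near feeder fibroblast genes 1 rose, near *Col1a2*. The summed signal of these 12 regions was 0.0333% to 0.0388% of the signal over all recovered regions of the same library at day 1. At day 2 it was 0.0358% to 0.0374%, a range inside that of day 1. Of 8 near mesoderm genes 4 rose, all near *Kdr*, a VEGF receptor, and 1 after centring. Of 9 near trophoblast genes 3 rose and 1 fell, and after centring 1 rose and 1 fell. These counts stand beside 19.9% rises and 0.671% falls over all tested regions. The *Eomes* gene of that list had changes in both directions among its 6 regions: the region with the highest mean of both days rose from 0.138, 0.249 and 0.182 RPM to 0.66, 0.867 and 0.823 RPM (log2 change 1.91), whereas the region with the canonical word printed above fell by 1.16 on the log2 scale. The only neural region tested, near *Sox1*, rose from 0.0842, 0.0977 and 0.0883 RPM to 0.24, 0.362 and 0.305 RPM.

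**Figure D5:**
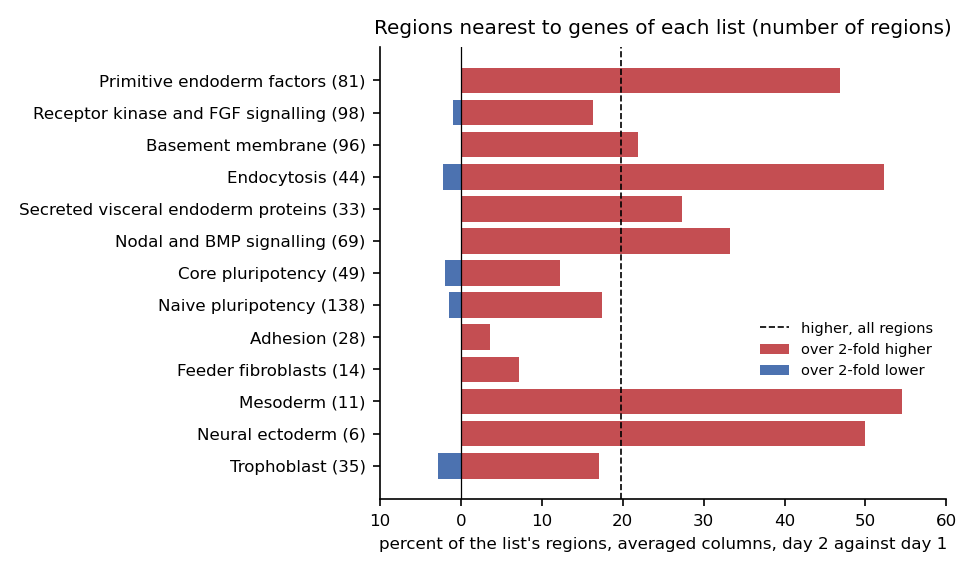
Percent of the regions nearest to the genes of each list that were over 2-fold higher (red, to the right) or lower (blue, to the left) at day 2 in the averaged columns, with the number of regions in brackets and the share of higher regions over all regions (19.8%) as a dashed line. Primitive endoderm factors stand at 46.9% and endocytosis genes at 52.3%, against 12.2% for core pluripotency genes. Mesoderm genes (11 regions) stand at 54.5% and neural ectoderm genes (6 regions) at 50%.

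Counting by gene, rises were spread over 2796 of the 7375 genes nearest to a tested region, and falls over 158. The genes with most rises, picked after their values were seen, were *Ank3*, *Btg1* and *Cited2* with 13 each out of 33, 33 and 34 tested. They were followed by *Foxq1*, a forkhead factor, with 12 of 17 (70.6%) and a median change of 1.36, and *Nrg1*, an ERBB ligand, with 12 of 36. After centring, these 5 genes in this order had 6, 4, 8, 8 and 5 rises and 1, 0, 1, 0 and 1 falls. Of all tested regions 19.9% rose and 0.671% fell, or 8.42% and 6.25% after centring. A count of this kind favours genes with many tested regions. *Col18a1*, a basement membrane collagen, had the most falls, 3 of 9 tested regions and 6 of 9 after centring, with a median change of -0.80.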

How the data were processed

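ATAC-seq libraries of day 1 and day 2 (3 each) were compared over GATA6 binding regions on mm10. As the authors describe, adapters were trimmed with cutadapt, reads aligned with Bowtie2, duplicates removed and reads filtered at MAPQ over 30 with SAMtools, read ends shifted for the transposase, and fragments under 100 bp counted per region and scaled to library size. The deposited values are RPM averaged per group by the authors, so no column holds a single library. The deposited table also gives GATA6, SOX17, OCT:SOX and ESRRB motif scores, used only through the authors' score groups, and classes of regions. In it, 52 columns of other assays were not used. Day 0 was not separated into libraries.

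Each averaged value is a sum of whole reads times 1 step per library. The steps were found from the lowest values of each column (1 added read per library), and values with over 12 digits were solved within 1e-08 reads, with 1 solution each. Limma 3.58.1 in R 4.3.3 was run on log2(RPM + 0.03) of the recovered libraries. Recovery and limma were tested on simulated data. Because the columns are averages, tests used the recovered libraries. Single values were compared by two-sided exact permutation over libraries, and p-values measure the spread between these samples, which may be technical. For limma on the RPM scale that spread is 1 value shared by all regions. Nearest genes are GENCODE M21 protein-coding start sites. Python 3.11.15 was used. Named regions were the 10 largest rises and 6 largest falls among called regions without overlap, all regions of the listed genes, and for each gene the region with the highest mean of both days. For 1 listed gene and the words related to it, results are not reported here. Members, lists, words and contrasts were chosen with earlier results of these data known. Alternatives changed the pseudocount, centring, low-value limit, model and libraries.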

Additional observations from a re-analysis of the deposited data

How the results depend on the processing

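Among the values that answer a comparison, 128 stayed within their limits under the alternatives, 46 moved and 4 reversed. Among single regions, lists and classes, 1111 were the same, 66 moved, 43 became weaker, 14 stronger and 4 reversed. The cause was not tested except where the construction shows it. In the averaged columns, regions over 2-fold higher and lower numbered 3522 and 6 with a pseudocount of 0.15 RPM, 3657 and 2769 after centring, 3312 and 2805 after quantile normalisation, and 4855 and 205 over recovered regions alone, which are fewer. The lower count was 950 with 0.006 RPM. By limma, rises and falls numbered 2081 and 2 with 0.15 RPM, 2085 and 1548 after centring, 1867 and 1504 after quantile normalisation, and 7967 and 803 with no limit on the difference. Falls numbered 511 with 0.006 RPM and 531 by voom on recovered reads. Leaving out each library gave 4001 to 6327 rises and 40 to 443 falls, with 304, 40 and 443 falls without day 1 library 1, 2 and 3. Added after the data were seen, each region's own spread gave 0 and 0 calls (smallest adjusted p 0.054, unadjusted p under 0.05 in 7350 and 844), and 1314 and 658 with centring.

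Median changes after centring and after quantile normalisation were -0.06 and -0.03 over all regions, 0.29 and 0.19 for Early&Constant, 0.11 and 0.22 for Late, -0.50 and -0.45 for Transient, 0.35 and 0.30 with SOX17, -0.36 and -0.25 without SOX17, 0.57 and 0.47 for ectopic PTFs, -0.44 and -0.52 for PTFs at day 0, and -0.10 and -0.01 without PTFs. With 0.15 RPM the change was 0.25 for Late, 0.51 with SOX17, 0.71 for ectopic PTFs and 0.15 without PTFs. Late regions had 0.73 with 0.006 RPM and 0.80 among regions of at least 0.05 RPM. Promoters had -0.07 after quantile normalisation, secreted visceral endoderm genes -0.03 after centring, and naive pluripotency genes -0.14 and -0.15 after centring and quantile normalisation. The difference of log2 totals was 0.52 to 0.87 with each library left out (exact p 0.2 to 0.4). No paired analysis was possible because the recovered libraries carry none of the replicate numbers of the labels.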
